A study of Mus musculus with 19 samples.

Results

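Bin1, Picalm, Sorl1, Abca7, Cd2ap, Ptk2b, Rin3, Cd33, Ms4a6d and Grn are mouse counterparts of genes that human genetics ties to the risk of Alzheimer disease and that macrophages of the brain express. The 10 genes were taken by symbol from 16941 genes counted in each of 19 libraries, and all 10 passed the filter on low counts that left 14113 genes for testing. Cortical microglia came from C57BL/6 mice, 10 to 11 months old, with or without a transgene for the amyloid precursor protein. They grew for 4 weeks in 10% serum with macrophage colony-stimulating factor at 5 ng/mL, received lipopolysaccharide (LPS, a ligand of Toll-like receptor 4) or plain medium during 6 h, and recovered for 16 h before RNA was taken.

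The groups were APP LPS (n = 5, cells of hAPPJ20 mice given 100 ng/mL LPS), APP vehicle (n = 5, the same line given medium only), WT LPS (n = 5, wild-type cells given 100 ng/mL LPS) and WT vehicle (n = 4, wild-type cells given medium only). In the hAPPJ20 line the transgene, human APP with the Swedish and Indiana mutations, is driven by a PDGF promoter, which is active mainly in neurons. The study removed the microglia from that tissue weeks before the treatment. Whether the libraries of a group derive from different mice or dishes is not stated, so the p-values refer to variation among these libraries, some of which may be technical. Libraries carry running numbers, and in 9 cases an LPS and a vehicle library of 1 genotype carry consecutive numbers. These are called pairs here, 5 in APP and 4 in WT. WT LPS replicate 1 has no partner.

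Most of the proteins work along the path by which a macrophage takes up and digests material. Picalm and Bin1 shape clathrin-coated and recycling membranes, Cd2ap links membrane cargo to actin, Rin3 activates the small GTPase Rab5 on early endosomes, and Sorl1 sorts cargo between endosomes and the Golgi. Cd33 and Ms4a6d sit at the cell surface, Ptk2b is a tyrosine kinase downstream of integrins and calcium, Abca7 moves lipids across membranes, and Grn encodes progranulin, a lysosomal protein. The mouse Cd33 protein differs from the human one in its signalling tail, and mouse Ms4a6d is one of several relatives of human MS4A6A.

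Library totals ranged from 13065257 to 31248988 counts (median 21918747). The labelled cell type was checked on 17 markers of microglia and macrophages, of which 16 were counted. Their summed level ran between 1044 and 7861 CPM (counts scaled to a common library total, with TMM-adjusted totals). P2ry12, Tmem119, Sall1 and Gpr34, markers that set microglia apart from other macrophages, were each at 0 in at least 1 library. Their group means were low, at 0.516 to 13.5, 5.49 to 6.59, 4.79 to 5.65 and 1.55 to 22.3 CPM in that order. The sum of 7 markers of border-associated macrophages ran between 629 and 5640 CPM. These sums cannot tell microglia from other macrophages. The sum of 14 pericyte, smooth muscle and fibroblast markers ran between 26920 and 80890 CPM, so the cultures were not macrophages alone. Fewer macrophages and less RNA per macrophage cannot be told apart in these bulk libraries. The lowest macrophage sums were in the libraries numbered 57 to 60 (APP LPS replicate 5, APP vehicle replicate 5, WT LPS replicate 5 and WT vehicle replicate 4), 1 in each group.

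Each read of a 3′ library marks 1 transcript end, so CPM values of different genes were set side by side with no division by length. Ms4a6d and Grn were the most abundant of the 10 genes, with means over the 19 libraries of 722 ± 321 and 657 ± 170 CPM (SD). Picalm followed at 309 ± 59.1 CPM, then Cd2ap at 106 ± 40.6 and Cd33 at 60.2 ± 27.3 CPM. Bin1 averaged 26.1 ± 11.8 CPM and Ptk2b 23.1 ± 13.9 CPM. The spans of mean ± SD overlapped for Ms4a6d and Grn, and for Bin1 and Ptk2b. The difference between 2 genes within libraries was not tested. Sorl1 averaged 9.38 ± 7.72 CPM, Rin3 5.07 ± 4.58 CPM and Abca7 1.20 ± 1.54 CPM. These 3 rare transcripts were at 0 counts in 2, 2 and 8 libraries, while 38.8% of all tested genes were at 0 in at least 1 library. A count of 0 is compatible with up to 3 counts in that library, which covers counting error only. The parts of macrophages and of the other cells of the cultures in the levels of the 10 genes were not tested.

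**Figure D1:**
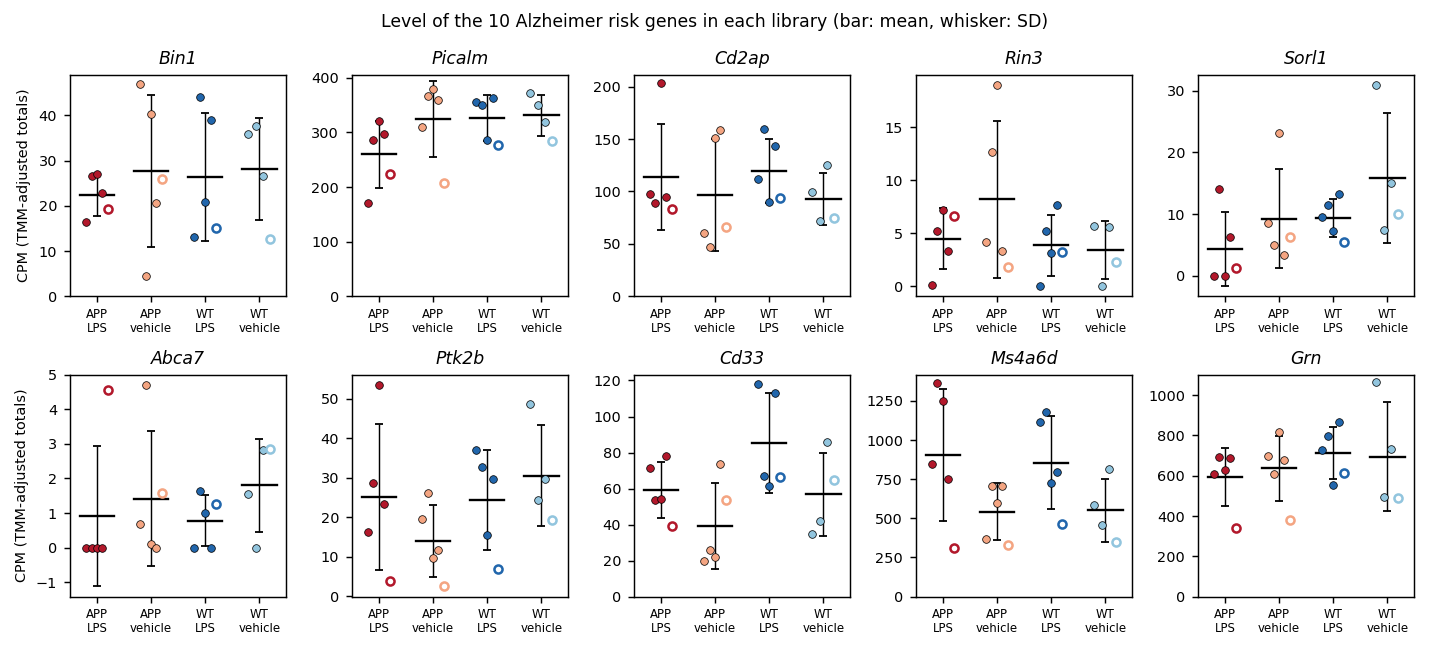
Each panel plots the CPM of 1 gene by library (points) with the group mean (bar) and SD (whisker) for APP LPS, APP vehicle, WT LPS and WT vehicle. Open points are the libraries numbered 57 to 60. The groups overlap in every panel, and Ms4a6d has higher means in the LPS groups (904 and 856 CPM) than in the vehicle groups (541 and 551 CPM).

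LPS against vehicle was the first comparison. With libraries compared by group, edgeR's quasi-likelihood test called none of the 10 genes after Benjamini-Hochberg adjustment over 14113 genes, in a setting where it called 0.0% of all genes in APP, 0.0% in WT and 0.0213% averaged over both genotypes. At an unadjusted p under 0.05 the averaged contrast held 2 of the 10 genes, Ms4a6d and Cd33, both higher, against 3.13% of all tested genes that were higher and 3.02% that were lower at that level. In APP alone it held Ms4a6d, higher, against 1.74% of all genes higher and 3.08% lower, and in WT none of the 10 genes, against 2.48% higher and 1.18% lower. In the averaged contrast DESeq2 called 0 of the 10 genes (1.27% of all genes), with 2 of them at an unadjusted p under 0.05 (6.65% of all genes). Limma voom with the pair as a random effect called 0 of the 10 (0.482% of all genes), with 3 at an unadjusted p under 0.05 (12.1%). No LPS group lay wholly above or below its vehicle group for any of the 10 genes. Over all tested genes, the ranges did not overlap in 0.255% (higher) and 0.333% (lower) of genes in APP and in 0.723% and 0.581% in WT. The median averaged change of the 10 genes by group was −0.10 on the log2 scale, beside −0.02 over all tested genes. With the pairs as blocks it had the opposite sign, at 0.03 beside −0.04.

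With the pairs as blocks, the same test called Ms4a6d averaged over both genotypes and no other of the 10 genes, where 1.5% of all genes were called and 0.815% were called higher. In single genotypes it called 0 of the 10 genes (0.588% of all genes in APP, 0.149% in WT). At an unadjusted p under 0.05 the pair test held Ms4a6d, Cd33 and Cd2ap averaged over genotypes, all higher, against 4.59% of all genes that were higher and 4.6% that were lower at that level. In APP it held Ms4a6d and Cd33, higher (3.15% of all genes), and Picalm, lower (4.54%). In WT it held Ms4a6d, higher (2.86%), and none lower (2.1%).

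Ms4a6d, a membrane protein with several membrane-spanning stretches that is made by macrophages and monocytes, was about 1.5 times higher with LPS within pairs. It stood at 846, 1364, 1250.0, 752 and 308 CPM in APP LPS replicates 1 to 5, against 366, 705, 596, 709 and 329 CPM in APP vehicle replicates 1 to 5. In WT LPS replicates 1 to 5 it stood at 1113, 1182, 727, 795 and 463 CPM, against 584.5, 455, 814 and 349.9 CPM in WT vehicle replicates 1 to 4. The 4 highest libraries are all LPS libraries, but the groups overlapped because APP LPS replicate 5 was the lowest of all 19 and WT vehicle replicate 3 exceeded 3 of the WT LPS libraries. By group the log2 change was 0.74 ± 0.34 in APP (SE, adjusted p = 1), 0.64 ± 0.37 in WT (adjusted p = 1) and 0.69 ± 0.25 averaged (adjusted p = 0.629, edgeR). Within pairs it was 0.65 ± 0.18 in APP (adjusted p = 0.142), 0.52 ± 0.20 in WT (adjusted p = 0.788) and 0.58 ± 0.13 averaged (adjusted p = 0.0319, edgeR).

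Ms4a6d was higher with LPS in 4 of 5 APP pairs and 3 of 4 WT pairs. The averaged call did not hold in every subset: leaving out each of the 9 pairs in turn kept it in 4 cases (adjusted p between 0.00494 and 0.0425) and lost it in 5 (between 0.0683 and 0.121), with changes between 0.50 and 0.67. It was lost without libraries 3 and 4, 7 and 8, 11 and 12, 9 and 10, or 21 and 22. DESeq2 gave an adjusted p of 0.24 and limma voom with the pair as a random effect 0.2. Without the libraries numbered 57 to 60, the pair test gave 0.69 ± 0.13 averaged (adjusted p = 0.0052) and 0.83 ± 0.18 in APP (adjusted p = 0.0185). That subset was chosen after seeing the data, and in it 282 (averaged) and 173 (APP) of 14083 genes were called. The 5 counted monocyte and neutrophil markers of 9 listed had higher sums with LPS, with medians at 139 CPM in APP LPS and 51.4 CPM in APP vehicle, and at 146 CPM in WT LPS and 66.5 CPM in WT vehicle. The sums ran between 104 and 246 CPM in APP LPS, 40.3 and 124.5 CPM in APP vehicle, 64.6 and 250.0 CPM in WT LPS, and 37.3 and 122 CPM in WT vehicle. S100a8, a calcium-binding protein of neutrophils and activated macrophages, was the only one of the 4 tested markers called within pairs (averaged log2 change 1.47 ± 0.23, adjusted p = 0.00163, edgeR), and Ly6c2, Plac8 and Csf3r were at 0 in at least 1 library. The median change of the 4 tested markers was −0.53, opposite in sign to the sums. The part of such cells in the Ms4a6d values was not tested.

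The neighbouring Ms4a genes did not all do the same. Of the 11 tested members of the Ms4a family beside Ms4a6d, edgeR called 1 within pairs (1.5% of all genes) and 0 by group (0.0213%). By group the same gene had an unadjusted p under 0.05, as did 3.13% of all genes that were higher. That gene was Ms4a6c, its closest relative in pattern, at 982 ± 424 CPM in APP LPS and 594 ± 290 CPM in APP vehicle, and at 1016 ± 381 CPM in WT LPS and 591 ± 275 CPM in WT vehicle. Its averaged change was 0.72 ± 0.16 within pairs (adjusted p = 0.0231, edgeR) and 0.75 ± 0.28 by group (adjusted p = 0.637), and it was higher in 8 of 9 pairs. Ms4a7, another macrophage member, had an averaged change of −0.19 ± 0.09 within pairs (adjusted p = 0.561) and was higher with LPS in 3 of 9 pairs. Ms4a6b had 0.26 ± 0.17 (adjusted p = 0.784). A difference between the family members' changes was not tested. In the annotation read here, no 31-base word of the last 400 bases of Ms4a6d transcripts occurs in another gene, so reads of that stretch can be told from those of Ms4a6c.

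**Figure D2:**
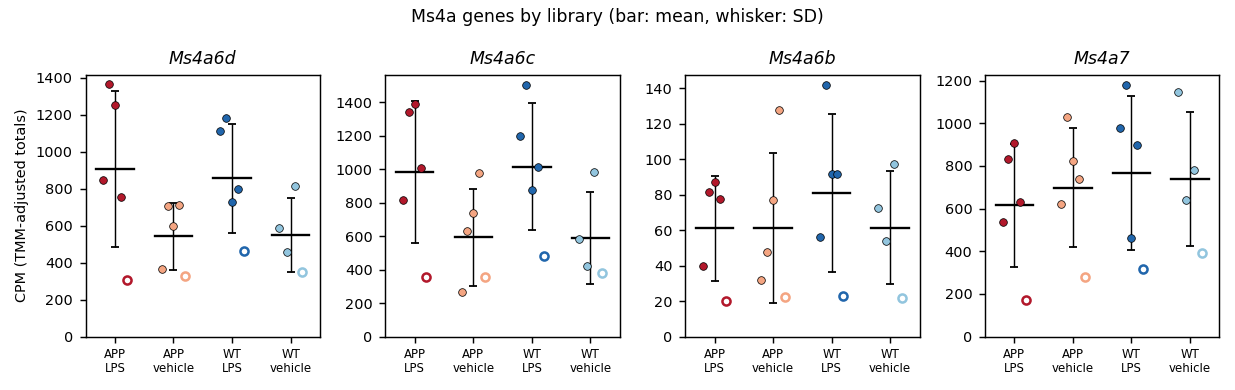
CPM of Ms4a6d, Ms4a6c, Ms4a6b and Ms4a7 by library (points), with group mean (bar) and SD (whisker), and open points for the libraries numbered 57 to 60. The LPS means of Ms4a6d and Ms4a6c exceed the vehicle means in both genotypes, while those of Ms4a7 do not in APP.

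Cd33, a sialic acid-binding receptor that is inhibitory in human cells, ran the same way at a lower level and missed the threshold. It stood at 71.3, 53.9, 54.2, 77.9 and 39.04 CPM in APP LPS replicates 1 to 5, against 19.6, 25.6, 22.0, 73.9 and 53.9 CPM in APP vehicle. In WT LPS it stood at 118, 67.0, 61.2, 113 and 66.6 CPM, against 34.8, 41.8, 85.6 and 64.6 CPM in WT vehicle. The 3 lowest values of all libraries are the APP vehicle replicates 1 to 3, and the groups overlap through APP vehicle replicates 4 and 5 and WT vehicle replicates 3 and 4. By group the change was 0.60 ± 0.36 in APP and 0.59 ± 0.38 in WT (adjusted p = 1 each), and 0.60 ± 0.26 averaged (adjusted p = 0.756, edgeR). Within pairs it was 0.63 ± 0.20 averaged (adjusted p = 0.181, edgeR), higher in 4 of 5 APP and 4 of 4 WT pairs. Without the libraries numbered 57 to 60 the pair test called it, with 0.85 ± 0.20 (adjusted p = 0.024, edgeR), where 282 of 14083 genes were called. That subset was chosen after seeing the data. It leaves out the only pair in which Cd33 was lower with LPS, libraries 60 and 59 (39.04 against 53.86 CPM).

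The promoter of Cd33 is printed beside that of Picalm because the pair values of these genes, both on chromosome 7, mostly ran in opposite directions and because their base composition differs. The sequences are from RefSeq on GRCm38.p6 and hold 250 bases before to 50 bases after the start. RefSeq promoters matched 7 of the 10 genes; Bin1, Ptk2b and Ms4a6d are named only. Capitals mark GAGGAA, the core bound by the macrophage factor PU.1, and CACGTG, a palindromic E-box bound by factors of the MiT/TFE family among others. Both strands were searched, also for the letters of AP-1 (TGANTCA), CRE (TGACGTCA), NF-kB and ISRE motifs, and no match to another motif overlaps the capitals.
Cd33 promoter (chr7:43533122-43533421, minus strand): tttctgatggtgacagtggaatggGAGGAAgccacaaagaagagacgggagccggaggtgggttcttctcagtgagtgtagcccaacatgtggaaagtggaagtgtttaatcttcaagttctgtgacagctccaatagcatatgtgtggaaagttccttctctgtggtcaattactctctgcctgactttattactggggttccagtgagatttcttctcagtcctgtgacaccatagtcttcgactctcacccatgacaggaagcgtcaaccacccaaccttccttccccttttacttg
Picalm promoter (chr7:90129963-90130262, plus strand): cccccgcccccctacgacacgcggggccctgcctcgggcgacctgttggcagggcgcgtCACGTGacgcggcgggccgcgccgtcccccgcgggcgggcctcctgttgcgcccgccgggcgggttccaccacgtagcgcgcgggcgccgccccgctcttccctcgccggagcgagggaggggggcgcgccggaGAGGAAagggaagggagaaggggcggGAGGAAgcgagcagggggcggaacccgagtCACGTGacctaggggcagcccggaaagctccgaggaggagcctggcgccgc
The Cd33 window held 1 GAGGAA and no CACGTG, with a GC content of 47.7% and 4 CG dinucleotides. The Picalm window held 2 GAGGAA and 2 CACGTG, with 78.0% GC and 44 CG dinucleotides. Of 32851 promoters of this length, 28.3% hold GAGGAA and 7.15% hold CACGTG. Of the other motifs, the Cd33 window held none and the Picalm window held the NF-kB letters at several overlapping places. The NF-kB letters are in 50.8% of all these promoters, TGANTCA in 7.81%, TGACGTCA in 1.79% and the ISRE letters in 3.44%. A match is a description of the letters and shows no binding.

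**Figure D3:**
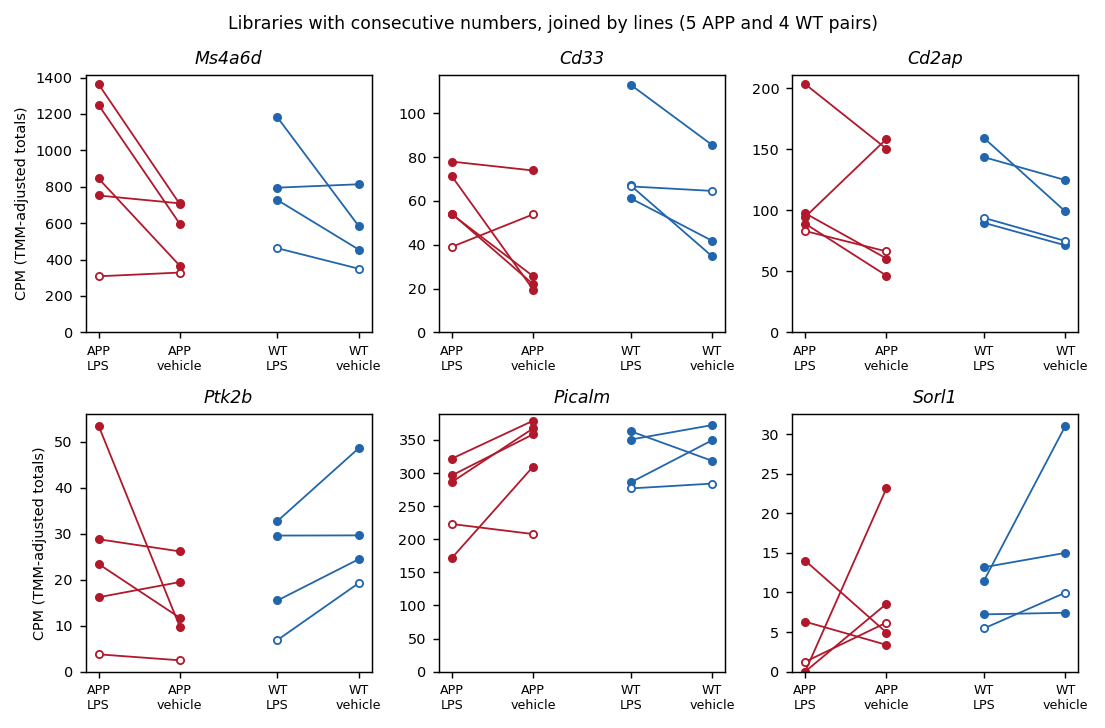
CPM of Ms4a6d, Cd33, Cd2ap, Ptk2b, Picalm and Sorl1, with lines joining the LPS library (left) and the vehicle library (right) of a pair, for 5 APP pairs and 4 WT pairs; open points are the libraries numbered 57 to 60. Cd33 and Cd2ap are higher with LPS in all 4 WT pairs and 4 of 5 APP pairs, and the Ptk2b lines slope in opposite directions in most APP and all WT pairs.

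Picalm, which recruits clathrin and sorts SNARE proteins at the plasma membrane, was the steadiest of the 10 genes and was lower with LPS in 4 of 5 APP pairs and 3 of 4 WT pairs. It stood at 172, 286, 322, 296 and 223 CPM in APP LPS, against 309.7, 367, 379, 358.5 and 208 CPM in APP vehicle. In WT LPS it stood at 356, 350.5, 286, 363 and 277 CPM, against 372, 349, 318.5 and 284 CPM in WT vehicle. APP LPS replicate 1 was the lowest library and the groups overlapped in both genotypes. The change in APP was −0.32 ± 0.20 by group (adjusted p = 1) and −0.32 ± 0.13 within pairs (adjusted p = 0.499, edgeR). In WT it was −0.02 ± 0.21 by group (adjusted p = 1) and −0.06 ± 0.15 within pairs (adjusted p = 1). The difference between the genotypes' changes was −0.30 ± 0.29 by group (adjusted p = 1).

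Cd2ap, the adaptor between membrane receptors and actin, was higher with LPS in 8 of 9 pairs without passing the adjusted threshold. Its means were 114 ± 50.6 CPM in APP LPS and 96.55 ± 53.55 CPM in APP vehicle, and 119.7 ± 30.7 CPM in WT LPS and 92.6 ± 24.8 CPM in WT vehicle. APP LPS replicate 3 at 204 CPM stood above the other APP LPS libraries, and its partner, APP vehicle replicate 3, was at 151 CPM. The averaged change was 0.30 ± 0.24 by group (adjusted p = 1) and 0.36 ± 0.15 within pairs (adjusted p = 0.381, edgeR). In the annotation, 9.51% of the 31-base words at its transcript ends occur on the opposite strand in Gm49797. The share of Cd2ap reads that fall on those words was not measured, and its level is uncertain to that extent if counting ignored strand.

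Of the 10 genes 3 were higher in at least 7 of 9 pairs, namely Cd33, Cd2ap and Ms4a6d, as were 10.3% of all tested genes. Picalm and Sorl1 were lower in at least 7 of 9 pairs, as were 12.3% of all genes. None of the 10 was higher or lower in all 9 pairs, as 0.935% (higher) and 1.06% (lower) of all genes were. None of them moved one way in all 5 APP pairs, as 3.46% (higher) and 4.99% (lower) of all genes did. In all 4 WT pairs Cd33 and Cd2ap were higher, as were 7.43% of all genes, and Sorl1 and Ptk2b were lower, as were 6.59%.

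Sorl1, a sorting receptor that binds the amyloid precursor protein, was rare and uneven. It stood at 0, 14.03, 0, 6.32 and 1.24 CPM in APP LPS, against 8.57, 4.95, 23.1, 3.39 and 6.20 CPM in APP vehicle. In WT LPS it stood at 9.59, 11.5, 7.24, 13.2 and 5.46 CPM, against 31.01, 7.44, 15.0 and 9.98 CPM in WT vehicle. The APP LPS libraries include both libraries without a count, and the ranges overlap between all groups. Its change was −1.10 ± 1.07 in APP and −0.76 ± 1.11 in WT (adjusted p = 1 each, edgeR by group), with an average of −0.93 ± 0.77. Within pairs the averaged value was −1.66 ± 1.11 (adjusted p = 0.792), and it rests partly on the 2 libraries at 0.

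Bin1, which bends membranes and is also made by muscle-lineage cells, varied between 4.38 CPM in APP vehicle replicate 2 and 46.9 CPM in APP vehicle replicate 1. Its means were 22.5 ± 4.63 CPM in APP LPS and 27.6 ± 16.8 CPM in APP vehicle, and 26.5 ± 14.2 CPM in WT LPS and 28.2 ± 11.4 CPM in WT vehicle. The change was −0.30 ± 0.47 in APP, −0.09 ± 0.50 in WT and −0.19 ± 0.34 averaged by group (adjusted p = 1 each, edgeR), against 0.02 ± 0.34 averaged within pairs, so its direction is not fixed by these data. It shares exonic positions with A830052D11Rik on the opposite strand. Rin3 averaged 4.49 ± 2.88 CPM in APP LPS and 8.20 ± 7.40 CPM in APP vehicle, and 3.85 ± 2.85 CPM in WT LPS and 3.39 ± 2.75 CPM in WT vehicle. Its change was −0.87 ± 1.26 in APP and 0.18 ± 1.33 in WT (adjusted p = 1 each), with an SE above 1 on the log2 scale in each. No difference of either gene exceeded the spread between libraries.

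Abca7, a transporter that exports phospholipids, was at 0 in 4 of 5 APP LPS libraries and at 4.56 CPM in the remaining one, replicate 5. In APP vehicle it stood at 0.690, 4.71, 0.1002, 0 and 1.59 CPM, in WT LPS at 0, 1.64, 1.00, 0 and 1.25 CPM, and in WT vehicle at 1.54, 0, 2.84 and 2.84 CPM. With 9 of 19 libraries at 3 counts or fewer and others at up to 99 counts, libraries varied too widely for a fold change to be given. Without the libraries numbered 57 to 60, edgeR by group held it at an unadjusted p under 0.05 with LPS in APP and averaged (941 and 1126 of 14083 genes). It also did so for APP against WT with LPS (618 genes). It was called in none, and that subset leaves out the only APP LPS library with a count.

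Grn had the averaged change closest to 0 of the 9 genes with a fold change. It stood at 609.7, 693, 629, 687 and 342 CPM in APP LPS, against 698, 607, 818, 679 and 379 CPM in APP vehicle. In WT LPS it stood at 725, 798, 553, 867 and 615.5 CPM, against 1065, 493, 732.5 and 491 CPM in WT vehicle. APP LPS replicate 5 and APP vehicle replicate 5 were the lowest libraries and the groups overlapped. The averaged change was −0.04 ± 0.18 by group and −0.01 ± 0.09 within pairs (adjusted p = 1 each, edgeR). The limits at 2 SE of the pair value were 0.874-fold and 1.13-fold. Grn was higher with LPS in 2 of 5 APP and 3 of 4 WT pairs.

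Ptk2b, the calcium- and integrin-responsive kinase Pyk2, gave different values in the 2 genotypes. It stood at 16.2, 28.8, 53.5, 23.4 and 3.78 CPM in APP LPS, against 19.5, 26.2, 9.77, 11.7 and 2.47 CPM in APP vehicle. In WT LPS it stood at 37.2, 32.7, 15.5, 29.6 and 6.87 CPM, against 48.6, 24.45, 29.6 and 19.25 CPM in WT vehicle. It was higher with LPS in 4 of 5 APP pairs and in 0 of 4 WT pairs, although libraries 42 and 41 were nearly equal at 29.6 CPM each. The change was 0.85 ± 0.59 in APP (adjusted p = 1), −0.32 ± 0.62 in WT (adjusted p = 1) and 0.26 ± 0.43 averaged (adjusted p = 1, edgeR). The genotype by LPS interaction was 1.18 ± 0.86 by group (adjusted p = 1) and 1.44 ± 0.60 within pairs (adjusted p = 1, edgeR). Neither interaction test called any of the 10 genes (0.0% of all genes by group, 0.0% within pairs). At an unadjusted p under 0.05 the pair interaction held 1 of the 10, Ptk2b, beside 0.503% of all genes that were positive and 1.46% that were negative at that level. By group it held 0 of the 10, beside 0.744% positive and 1.98% negative. Without the libraries numbered 57 to 60, which had the lowest Ptk2b value of each group, the pair interaction was 1.21 ± 0.68 (adjusted p = 1).

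**Figure D4:**
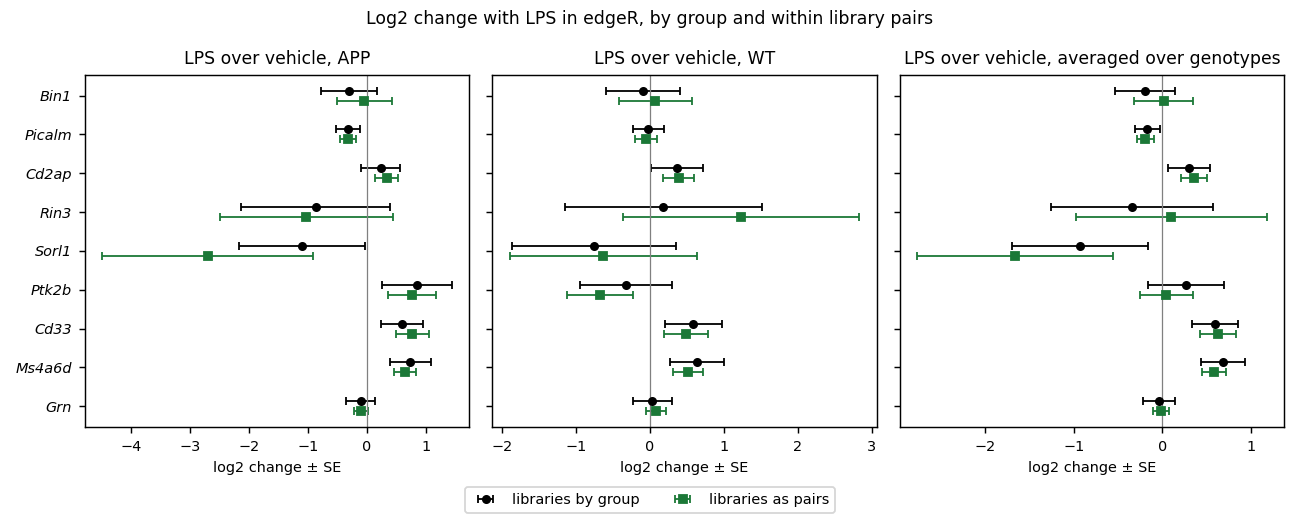
Log2 change with LPS over vehicle (point) ± SE (bar) of 9 genes in APP, in WT and averaged over genotypes, from edgeR with libraries by group (black) and with pairs as blocks (green); Abca7 is left out because of its libraries at 0. The points of Ms4a6d, Cd33 and Cd2ap lie above 0 in all 3 panels, while Grn and Picalm have the narrowest bars.

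APP against WT was the second comparison, and it shows no difference that holds against the spread between libraries. edgeR called 0 of the 10 genes with vehicle and 0 with LPS (0.0% of all genes in each), and 0 of the 10 reached an unadjusted p under 0.05. At that level 2.03% of all genes were higher and 0.822% lower in APP with vehicle, and 1.05% higher and 2.37% lower with LPS. DESeq2 called 0 of the 10 genes with vehicle (0.456% of all genes) and 0 with LPS (0.491%), with 0 at an unadjusted p under 0.05 (2.83% and 3.23% of all genes). Limma voom called 0 of the 10 in each (0.0% of all genes). At an unadjusted p under 0.05 it held 1 of the 10 with vehicle, Ptk2b (3.06% of all genes), and 1 with LPS, Sorl1 (3.85%). The ranges of APP and WT overlapped for all 10 genes, beside 0.475% (higher) and 0.368% (lower) of all genes that did not overlap with vehicle, and 0.163% and 0.333% with LPS. With vehicle, Ptk2b averaged 13.9 ± 9.14 CPM in APP and 30.5 ± 12.8 CPM in WT, a log2 difference of −1.13 ± 0.62 (adjusted p = 1). Cd33 averaged 38.99 ± 23.9 CPM in APP vehicle and 56.7 ± 23.1 CPM in WT vehicle (−0.54 ± 0.37), and 59.3 ± 15.5 CPM in APP LPS and 85.2 ± 27.9 CPM in WT LPS (−0.52 ± 0.36). These 2 Cd33 values come from different libraries, but most of these are partners in pairs, so the values may not be independent. Each has an adjusted p of 1. With vehicle, Rin3 differed by 1.27 ± 1.37. With LPS, Picalm averaged 259.8 ± 61.3 CPM in APP and 326.5 ± 41.7 CPM in WT (−0.33 ± 0.20), and Sorl1 averaged 4.32 ± 6.02 CPM in APP and 9.39 ± 3.12 CPM in WT (−1.12 ± 1.07).

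The running number of the libraries moved with the size of the LPS change. In the 4 pairs numbered 41 to 60 the log2 difference of Ms4a6d ran between −0.09 and 0.40, and in the 5 pairs numbered 3 to 22 between 0.68 and 1.21. For Cd33 the ranges were −0.46 to 0.40 in the later pairs and 0.55 to 1.86 in the earlier ones. For Cd2ap they were −0.74 to 0.32 and 0.33 to 0.94. For these 3 of the 10 genes the later pairs lay wholly below the earlier ones, as for 2.05% of all tested genes, and for none of the 10 wholly above, as for 1.45%. The split was chosen after the values were seen and carries no test.

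For Cd33 the vehicle level differed: the 4 vehicle libraries numbered 41 to 60 held 53.9 to 85.6 CPM and the 5 numbered 3 to 22 held 19.6 to 41.8 CPM. It was the only one of the 10 genes whose vehicle libraries did not overlap between these number ranges (3.12% of all genes were higher in the later libraries without overlap). For Ms4a6d the LPS level differed more, with 308 to 795 CPM in 4 later and 727 to 1364 CPM in 6 earlier LPS libraries. Il1b, an LPS-induced cytokine, was at 52.2 to 131.5 CPM in the later vehicle libraries and 6.36 to 26.2 CPM in the earlier ones. Its pair differences were 1.73 to 2.65 in the later pairs and 4.10 to 5.18 in the earlier ones. Tnf, another LPS-induced cytokine, did not separate in this way. It was at 22.2 to 26.55 CPM in the later vehicle libraries, inside the 16.4 to 51.35 CPM of the earlier ones. The pair differences of Tnf overlapped, at 0.55 to 2.05 in the later pairs and 1.11 to 2.725 in the earlier ones. What the library numbers stand for is not stated, and both ranges hold both genotypes. The later range includes the libraries numbered 57 to 60, which had the lowest macrophage marker sums (1044 to 2282 CPM). The parts of macrophage content and of the Il1b state of the vehicle cultures in these values were not tested.

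The libraries numbered 57 to 60 bear on the levels of several of the 10 genes. Their median over that of the other 15 libraries was 0.203 for Ptk2b, 0.451 for Ms4a6d, 0.527 for Rin3, 0.628 for Grn and 0.644 for Bin1. It was 0.681 for Sorl1, 0.715 for Picalm, 0.797 for Cd2ap and 0.968 for Cd33. The summed macrophage markers in these 4 libraries lay between 1044 and 2282 CPM and were the minimum of each group, with group medians of 5018 CPM in APP LPS, 6238 in APP vehicle, 5601 in WT LPS and 6107 in WT vehicle. The group maxima were 6941 CPM in APP LPS, 7665 in APP vehicle, 7229 in WT LPS and 7861 in WT vehicle. Abca7 went the other way, with 1.25 to 4.56 CPM in these 4 libraries (median 2.21) and a median of 0 in the other 15. Of the 9 other genes Cd33 had the ratio closest to 1, although APP LPS replicate 5, at 39.04 CPM, was the lowest LPS library for it. The part of macrophage content in each gene's spread was not tested.

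**Figure D5:**
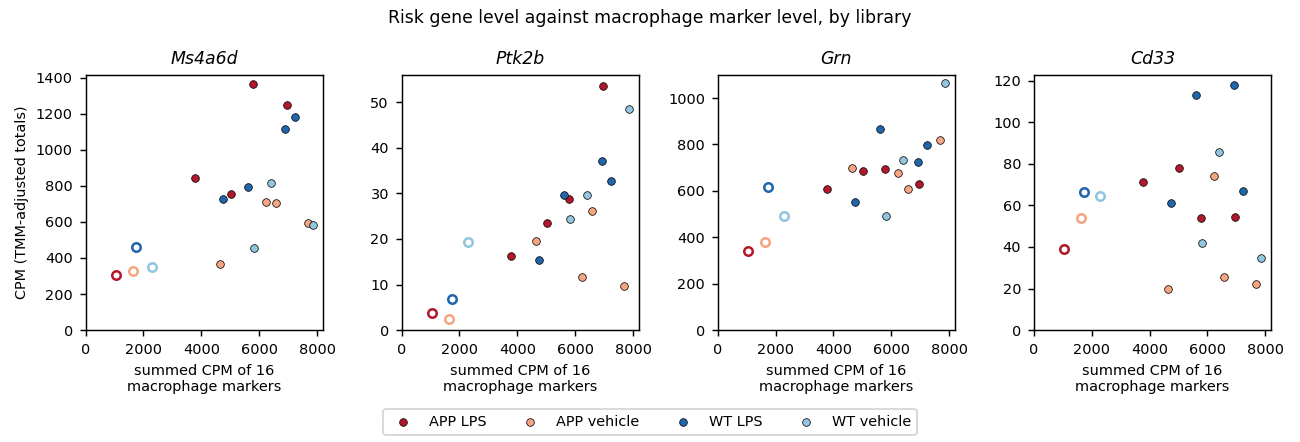
CPM of Ms4a6d, Ptk2b, Grn and Cd33 (y axis) against the summed CPM of 16 macrophage markers (x axis) in each library, coloured by group, with open points for the libraries numbered 57 to 60. The 4 open points lie at 1044 to 2282 CPM of markers, where the medians of Ms4a6d, Ptk2b and Grn are 0.451, 0.203 and 0.628 times those of the other 15 libraries and the median of Cd33 is 0.968 times.

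The genes most like each of the 10 were found among 8241 tested genes with a mean of at least 10 CPM, by Pearson's r of log2 CPM over the 19 libraries after subtracting group means. For Ms4a6d they were Ms4a6c (r = 0.945) and Arhgap30 (0.943), for Ptk2b Plekhb2 (0.965) and Sema4d (0.933), and for Grn Osbpl8 (0.922) and Rnf128 (0.921). For Picalm they were Hebp1 (0.929) and Ubash3b (0.925), for Cd2ap Fgl2 (0.886) and Prkcb (0.880), and for Cd33 Gbp7 (0.860) and Pla2g7 (0.837). For Bin1 they were Rpl39l (0.874) and Keap1 (0.766), for Rin3 Clk2 (0.859) and Rnaseh2b (0.786), for Sorl1 Aco1 (0.866) and Lyrm9 (0.865), and for Abca7 Cct5 (0.798) and Stag1 (0.794). These are the highest of many coefficients and the points share library depth and macrophage content. Without the libraries numbered 57 to 60, Sema4d fell to 0.703 and Plekhb2 to 0.896 with Ptk2b, while Gbp7 stood at 0.855 with Cd33.

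Genes that work beside the 10 were counted from lists, for LPS against vehicle averaged over genotypes. Over all tested genes, edgeR called 0.815% higher and 0.68% lower within pairs, and 0.0213% by group. At an unadjusted p under 0.05, 4.59% were higher and 4.6% lower within pairs, and 3.13% and 3.02% by group. Of 12 LPS response control genes all 12 were called higher averaged over genotypes within pairs, and 2, Il1b and Tnf, by group. That list was chosen with earlier results of these data known, so its calls are no independent check of either fit. Il1b had an averaged change of 3.63 ± 0.34 and Tnf, encoding tumour necrosis factor, of 1.57 ± 0.20 (adjusted p = 1.77e-05 and 0.000229, edgeR within pairs), and both were higher in 9 of 9 pairs. Of 28 other tested Alzheimer risk genes, 0 were called higher and 3 lower within pairs: Trem2, a lipid-sensing receptor, by −1.29 ± 0.16, Apoe, the main brain apolipoprotein, by −0.90 ± 0.12, and Ctsb, a lysosomal protease, by −0.47 ± 0.07. By group, Apoe was the only one of the 28 called (−1.02 ± 0.18, adjusted p = 0.0439).

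Among the partners of Grn, 4 of 15 tested genes were called lower and 1 higher within pairs (0.68% and 0.815% of all genes). Among the lower genes, Ctsd (−0.62 ± 0.09), Ctsb and Gpnmb (−0.52 ± 0.09) fell, each in 9 of 9 pairs. Ctsd and Ctsb encode lysosomal proteases and Gpnmb a lysosome-associated glycoprotein. Slpi, a secreted protease inhibitor that protects progranulin from cleavage, rose by 1.79 ± 0.39 (adjusted p = 0.0231), and was named after its value was seen. By group, edgeR called 0 of the 15, with 1 higher and 4 lower at an unadjusted p under 0.05. Of 20 retromer and sorting receptor genes 0 were called higher and 2 lower within pairs, Snx5 (−0.55 ± 0.09, lower in 9 of 9 pairs) and Lrp1 (−0.44 ± 0.10, lower in 8 of 9 pairs), and 0 by group, where 3 were lower at an unadjusted p under 0.05 in edgeR.

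Of 29 clathrin, Rab5 and adaptor genes, 0 were called in either edgeR fit (1 higher and 1 lower at an unadjusted p under 0.05 by group, 0 and 2 within pairs), and the smallest averaged p by group belonged to Eps15, an endocytic adaptor, with −0.47 ± 0.16 (adjusted p = 0.61). Of 13 Siglec genes and signalling partners, 0 were called in edgeR (1 higher and 1 lower at an unadjusted p under 0.05 by group, 2 and 2 within pairs). St6gal1 and St3gal1, which add the sialic acids that Cd33 binds, had −0.87 ± 0.33 and 0.54 ± 0.23 (adjusted p = 0.669 and 0.753, edgeR by group). Of 17 relatives and partners of Ptk2b, 0 were called in edgeR (1 higher and 0 lower at an unadjusted p under 0.05 by group, 1 and 2 within pairs), with Bcar1, an integrin adaptor, at −0.40 ± 0.26 (adjusted p = 0.966). Of 12 lipid transporter and efflux genes, Apoe was the only one called. The averaged medians within pairs were −0.23 for other risk genes, −0.33 for the Grn partners, −0.08 for clathrin and Rab5 genes and −0.08 for retromer genes. They were −0.07 for the Siglec list, −0.33 for lipid transporters, 0.26 for the Ms4a family, 0.03 for the Ptk2b list and 2.06 for the LPS controls, beside −0.04 over all tested genes.

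Of the 16 macrophage markers, 6 were called lower and 0 higher within pairs, where 0.68% of all genes were called lower, and the other 10 did not pass. By group edgeR called 0 of the 16, with 4 lower at an unadjusted p under 0.05 (3.02% of all genes). The 6 included Trem2, C1qa, C1qb, C1qc and Cx3cr1. Within the same pairs Ms4a6d was called higher. The sequences at the transcript ends of Bin1, Rin3, Sorl1, Abca7, Ptk2b and Cd33 share no 31-base word with another annotated gene. For Grn 2.3% and for Picalm 0.062% of such words occur in other genes on the same strand. On the opposite strand the shares were 3.43% for Grn and 0.062% for Picalm. Like Bin1, Sorl1 and Grn share exonic positions with a gene on the opposite strand, Gm16214 and Fam171a2 in that order.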

How the data were processed

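The authors deposited 1 table of estimated counts per library, whole numbers per gene. The submitters' processing notes name FastQC, Trimmomatic, kallisto and DESeq2 without their order. The libraries were QuantSeq 3′ FWD with UMIs and ERCC spike-ins, per the labels' protocols. For tool versions, genome build, annotation and any collapsing by UMI, nothing is stated in the labels or files read.

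Counts were rounded to whole numbers, which changed no value. Genes passed edgeR's filterByExpr (14113 of 16941), and CPM used TMM-adjusted totals. edgeR 4.0.16 in R 4.3.3 fitted 1 coefficient per group over all 19 libraries with the quasi-likelihood F test, and Benjamini-Hochberg adjustment ran over all 14113 genes at 0.05. A second fit added the pairs of consecutive library numbers as blocks. Alternatives were a replicate block, DESeq2 1.42.0, other size factors, no filter, leaving out libraries and, chosen after seeing the data, limma 3.58.1 voom with the pair as a random effect and the pair fit without the libraries numbered 57 to 60 or without each pair. Only the group fit in edgeR was tried on simulated counts, and only for LPS against vehicle in APP. The simulated dispersion (spread of counts between libraries beyond counting error) was set below the common value of 1.05 estimated here. The pair, DESeq2 and voom fits were not tried on simulated counts.

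The labels do not say that the numbers pair libraries. Deviations from group means correlated over 0.1 in all 5 APP pairs, whose replicate numbers are the library pairs (r between 0.13 and 0.352), and in 3 of 4 WT pairs (0.0959 for libraries 41 and 42). WT LPS replicate 1 is numbered 5 in its label and 6 in its file. Within pairs, genotype differences cannot be estimated.

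The 10 genes and all lists were chosen with earlier results of these data known, and lists and tests draw on that earlier work. All 10 genes were named, with list genes called in either fit (up to 4 per list by smallest p), or where none was called the 2 of smallest p, and the 2 genes most like each of the 10. Promoters are from RefSeq, GRCm38.p6, and overlaps and shared words from GENCODE M21 on GRCm38, which may differ from the authors' annotation. Counting intervals cover counting error only. Some genes that the naming rule covers are not reported here.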

Additional observations from a re-analysis of the deposited data

Results flagged for a closer look

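In 4 of 40 sets of 1 gene in 1 group, a single library stood far from the others by Dixon's criterion, which chance meets in about 1 of 20 sets. Cd2ap was at 203.6 CPM in APP LPS replicate 3, against 83.1 to 97.7 CPM in the other APP LPS libraries. Sorl1 was at 23.14 CPM in APP vehicle replicate 3, against 3.39 to 8.57 CPM in the others of that group. Abca7 was at 4.558 CPM in APP LPS replicate 5 and at 0 in the others, a pattern that meets the criterion whatever the single value is. Grn was at 342.0 CPM in the same library, against 609.7 to 693 CPM in the others.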

How the results depend on the processing

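Counts of genes called over the whole table depended on the fit, while the 10 genes stayed uncalled by group. With LPS in APP the count was 0 by group, 83 with the pair block, 76 with DESeq2, 4 without the libraries numbered 57 to 60, 173 with the pair block without them and 9 with voom. With LPS in WT it was 0 by group, 21 with the pair block, 89 with DESeq2, 32 with the pair block without those libraries and 3 with voom. Averaged, it was 3 by group, 211 with the pair block, 15 with the replicate block, 178 with DESeq2, 31 without those libraries, 282 with the pair block without them and 68 with voom. APP against WT gave 0 by group, with 64 (vehicle) and 69 (LPS) in DESeq2 and 1 (LPS) without those libraries. The interaction gave 0 by group, 99 in DESeq2 and 1 with the pair block without those libraries. Leaving out 1 library gave 0 to 2 (APP), 0 to 11 (averaged) and 0 to 1 (APP against WT with LPS), with the highest each time without APP LPS replicate 5. The causes were not tested.

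Changes near 0 reversed sign. Bin1 reached 0.072 in APP with the pair block without the libraries numbered 57 to 60. In WT it reached 0.072 with the pair block, 0.011 with the replicate block and 0.0090 with the pair block without those libraries, and averaged 0.015 and 0.040 with the pair block with and without them. With the replicate block Picalm in WT was 0.059, Rin3 in WT −0.34, Ptk2b in WT 0.067, Grn averaged 0.054 and Ms4a7 averaged 0.034. Rin3 averaged 0.10 with the pair block. Grn in WT was −0.059 without the libraries numbered 57 to 60 and −0.0036 with the pair block without them. Leaving out 1 library gave −0.35 to 0.082 for Bin1 in WT, −0.075 to 0.045 for Picalm in WT, −0.082 to 0.49 for Cd2ap in APP, −0.23 to 0.56 for Rin3 in WT and −0.17 to 0.083 for Ms4a7 averaged. For Grn it gave −0.24 to 0.041 in APP, −0.10 to 0.32 in WT and −0.11 to 0.11 averaged. WT replicate numbers did not pair the libraries. Abca7 had 3 counts or fewer in 9 libraries, Rin3 in 3 and Sorl1 in 2.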
